A study of Bos taurus with 2 samples.

Results

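Translation initiation and elongation factors are the proteins that load ribosomes onto messenger RNA, move them along it and release the finished chain. Their transcripts were taken here as the genes whose name on the array starts with EIF and a digit, EEF1, EEF2, ETF1, GSPT or PABPC. This rule gave 71 gene names of 32429, with 189 probes. Sperm total RNA of HF crossbred breeding bulls, all male, was hybridised to 2 bovine Agilent arrays, 1 for bulls labelled high in fertility and 1 for bulls labelled low. Both groups thus shared breed type, sex and breeding status and differed in the fertility label. The labels give no age, no number of bulls behind an array, no measure of fertility and no step that removed other cells from the semen. Each group had 1 array, which leaves no spread between replicates to test against, and every value describes these arrays only.

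In cytosolic translation, EIF2 brings the initiator tRNA to the small ribosomal subunit, EIF3 holds that subunit ready, and the EIF4 proteins bind the messenger's cap and unwind its leader. The EEF proteins then deliver each aminoacyl-tRNA and move the ribosome by a codon, the release factors end the chain, and PABPC proteins bind the poly(A) tail. Mature sperm are known for very little cytosolic translation, and much of their RNA is regarded as carried over from spermatogenesis.

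The measurement rests on 60-base probes, and 11 of the 189 member probes are shown here, chosen because the results on EEF1A1, the EIF4 group, EEF1G and EIF3E refer to them. Coordinates are those of the array design, on build HGSC Btau_3.1, and the sequence is that of the probe, in transcript orientation. Which exon or untranslated region holds a probe was not analysed here, since no annotation of that build was used. For EEF1A1, the elongation factor that delivers aminoacyl-tRNA, 3 probes from the stretch between positions 262 and 1238 of its transcript are given (chr9:12616153-12616212, chr9:12615238-12615297 and chr9:12614826-12614885, minus strand). The last of them is set beside the EEF1A2 probe for the same region (chr13:54841340-54841399, plus strand), with capitals at the 16 of 55 aligned bases that differ between these related genes.
EEF1A1 at 262: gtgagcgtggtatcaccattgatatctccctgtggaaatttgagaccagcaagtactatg
EEF1A1 at 884: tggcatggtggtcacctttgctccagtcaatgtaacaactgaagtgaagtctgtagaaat
EEF1A1 at 1213: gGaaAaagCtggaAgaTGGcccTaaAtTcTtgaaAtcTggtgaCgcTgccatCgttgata
EEF1A2 at 1249: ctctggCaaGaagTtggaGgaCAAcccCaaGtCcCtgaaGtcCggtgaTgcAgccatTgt

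For the EIF4 group, which had the lowest median of the groups compared, the probes of EIF4B (chr5:29884835-29884894 and chr5:29883240-29883299, minus strand), EIF4G3 (chr2:136315885-136315944, plus strand) and EIF4G2 (chr15:40891678-40892327, plus strand, a span longer than the probe) are given. EIF4B assists the EIF4A helicase, EIF4G3 is a scaffold of the cap-binding complex, and EIF4G2 is a related scaffold that lacks the site for the cap-binding protein.
EIF4B at 1411: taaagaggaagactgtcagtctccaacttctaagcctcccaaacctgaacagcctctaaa
EIF4B at 1739: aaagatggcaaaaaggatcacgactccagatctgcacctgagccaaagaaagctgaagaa
EIF4G3 at 4082: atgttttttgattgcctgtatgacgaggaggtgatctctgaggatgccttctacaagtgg
EIF4G2 at 1564: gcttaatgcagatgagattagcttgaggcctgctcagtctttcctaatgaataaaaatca

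The EEF1G pair (chr29:42612053-42612112 and chr29:42612036-42612095, minus strand) is shown because its probes read overlapping bases and gave different values. Capitals mark the 43 bases they share, which hold 0 mismatches. EIF3E (chr14:54086037-54086096, plus strand) was well above background on the low-fertile array only.
EEF1G at 434: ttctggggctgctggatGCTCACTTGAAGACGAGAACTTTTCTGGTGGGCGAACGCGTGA
EEF1G at 451: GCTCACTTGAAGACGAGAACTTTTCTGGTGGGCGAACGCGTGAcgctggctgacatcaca
EIF3E at 983: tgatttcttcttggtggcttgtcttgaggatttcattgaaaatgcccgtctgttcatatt

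Signals are given as scaled signals, in which each array's 75th percentile over the probes measured on both arrays equals 100. The high-fertile array's lowest scaled signal well above background was 15.2 and the low-fertile array's was 16.3. Differences are log2 values, high-fertile minus low-fertile, and a gene's difference is the mean over its probes that were well above background on both arrays. A scanner error beside a difference is the error that the scanner software's model gives for it, and it holds no difference between bulls or between labelling reactions. In RNA from a bulk sample, fewer cells of a type and less RNA per cell cannot be told apart. Across the arrays 33.2% of high-fertile and 32.9% of low-fertile spots were well above background and 0 were saturated.

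Of the 71 genes, 36 (50.7%) were measured on both arrays, where 36.0% of all gene names were. A further 4 genes (5.63%) were well above background on the high-fertile array only and 6 (8.45%) on the low-fertile array only, where 4.32% and 4.29% of all gene names were, and 25 on neither. The EEF group had 6 of 8 genes measured on both arrays, the EIF4 group 9 of 14, the EIF2 group 6 of 19 and the EIF3 group 4 of 13. In that order, these groups had 33, 43, 36 and 37 probes. A gene was counted if any of its probes was measured, and the part of probe number in these shares was not tested. By probe, 69 of the 189 member probes were measured on both arrays, beside 27.6% of all 51280 probes. All 4 genes found on the high-fertile array alone were EIF3 subunits, and 4 of the 6 found on the low-fertile array alone were in the EIF2 group. Detection differed along the transcript. Among 57 member transcripts with several probes, the probe nearest the 3′ end was measured in 28 (49.1%) and the one nearest the 5′ end in 13 (22.8%), while over 10322 transcripts of all genes the shares were 30.0% and 22.6%. The labels describe priming with oligo-dT, which starts at the poly(A) tail, and its part in these shares was not tested.

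**Figure D1:**
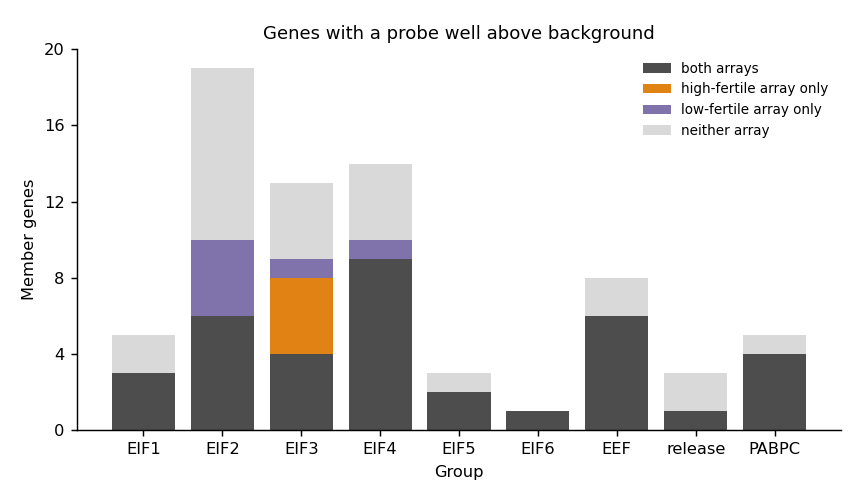
Bars count the member genes of each group (vertical axis, number of genes) by whether a probe was well above background on both arrays, on the high-fertile array only, on the low-fertile array only, or on neither. The 4 genes on the high-fertile array alone all lie in the EIF3 bar.

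None of the 36 measured genes was at least 2-fold apart in either direction, where, of all 11687 measured genes, 1.87% were higher and 2.44% lower on the high-fertile array by that fold. At 1.5-fold, 3 genes (8.33%) were higher, beside 7.61% of all genes: EIF4E1B, EIF2S3 and EIF4EBP1. At the same fold 4 genes (11.1%) were lower, beside 8.73% of all genes: EIF4B, EIF3D, EIF4G3 and EIF2B5. Both shares were near those of all genes. Counted by sign alone, 15 of the 36 were higher and 21 (58.3%) lower, where 49.98% of all genes were lower, with a median of -0.11, and the median of all genes was 0.00 with quartiles of -0.25 and 0.24. Scaling on the 7 spike-in RNAs moved the median of all genes to -0.64, and on that scale EIF2S3 and EIF4E1B were the members above 0 and the other 34 were below it.

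**Figure D2:**
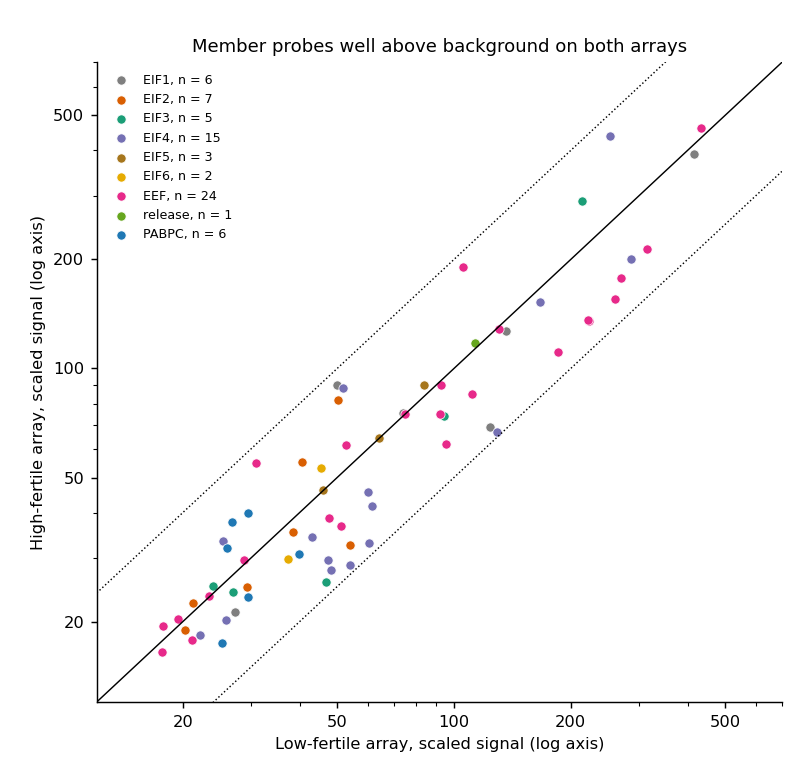
Each point is 1 of the 69 member probes well above background on both arrays, with its scaled signal on the low-fertile array (horizontal, log axis) and on the high-fertile array (vertical, log axis), coloured by group. The solid line marks equal signals and the dotted lines a 2-fold difference, and all points lie between the dotted lines.

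The EIF4 group had the lowest median of the EIF2, EIF3, EIF4 and EEF groups, at -0.36, with 7 of 9 measured genes lower on the high-fertile array and a range of -0.91 to 0.76. The genes below 0 were EIF4A1, EIF4A2, EIF4B, EIF4E2, EIF4G1, EIF4G2 and EIF4G3, and those above 0 were EIF4E1B and EIF4EBP1. EIF4B had a scaled signal of 39.8 on the high-fertile array, against 74.9 on the low-fertile array, a difference of -0.91. Its 3 probes lay at -0.87, -0.92 and -0.95 (SD 0.04 between probes), and the scanner error was 0.15. Among the 36 genes measured on both arrays EIF4B had the lowest difference, and its probes lay close together. Its sign was the same under each alternative processing, between -1.55 and -0.46.

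EIF4G3 had 27.8 on the high-fertile array, against 48.1 on the low-fertile array, a difference of -0.79 from 1 measured probe of 4 (scanner error 0.28). EIF4G2 had 91.7 on the high-fertile array, against 133 on the low-fertile array, a difference of -0.53 with an SD of 0.03 between its 2 measured probes of 7. Another EIF4G2 probe, at position 546, had 8.87 on the high-fertile array, where it was not well above background, against 267 on the low-fertile array, at least 17.5-fold lower. That spot lay in or beside a patch of the array, and 5 of its 8 neighbouring spots were also at least 2-fold lower. It did not enter the gene's value, and the remaining EIF4G2 probes were well above background on neither array. EIF4G1, the main scaffold of the cap-binding complex, had 20.2 on the high-fertile array, against 25.8 on the low-fertile array. The difference was -0.36 from 1 measured probe of 3 (scanner error 0.39), and the spot of that probe also lay in or beside such a patch. Of these scaffold values, those of EIF4G2 and EIF4G3 were larger than their scanner errors and that of EIF4G1 was smaller.

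EIF4A2, a helicase that unwinds the leader, had 35.9 on the high-fertile array, against 49.6 on the low-fertile array, a difference of -0.47 with an SD of 0.18 between 3 probes. Its other probes, at positions 1410 and 1412, were well above background on the low-fertile array only. EIF4A1, the other main helicase, had 18.4 on the high-fertile array, against 22.1 on the low-fertile array. The difference was -0.26 from 1 measured probe of 2 (scanner error 0.29). EIF4A3, a helicase of the exon junction complex, was found on the low-fertile array only and was at least 1.28-fold lower on the high-fertile array. The 6 genes EIF4A1, EIF4A2, EIF4B, EIF4G1, EIF4G2 and EIF4G3 lay between -0.91 and -0.26, with a median of -0.50. This set of helicases, scaffolds and EIF4B was drawn after the values were seen, so its common sign is no separate result. Without a filter on dim probes EIF4A1 stood at 0.40 and EIF4G3 at 0.04.

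EIF4EBP1 encodes a small protein that binds EIF4E and keeps it from the scaffold. It had 121 on the high-fertile array, against 80.1 on the low-fertile array, a difference of 0.59 with an SD of 0.27 between probes. Its brighter probe had 437 on the high-fertile array, against 253 on the low-fertile array (0.79), and its dimmer probe had 33.5 on the high-fertile array, against 25.4 on the low-fertile array (0.40). EIF4E1B, a relative of the cap-binding protein that is best known from oocytes, had 88.2 on the high-fertile array, against 51.9 on the low-fertile array, a difference of 0.76 from its single probe (scanner error 0.23). EIF4E2, another cap-binding relative, had 152 on the high-fertile array, against 167 on the low-fertile array (-0.13, scanner error 0.21), from 1 measured probe of 4. Another EIF4E2 probe, at position 562, was well above background on the low-fertile array only. It was at least 1.67-fold lower on the high-fertile array. EIF4E itself, EIF4E3, EIF4ENIF1 and EIF4H were well above background on neither array, so the ratio of the inhibitor to its main partner could not be given.

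**Figure D3:**
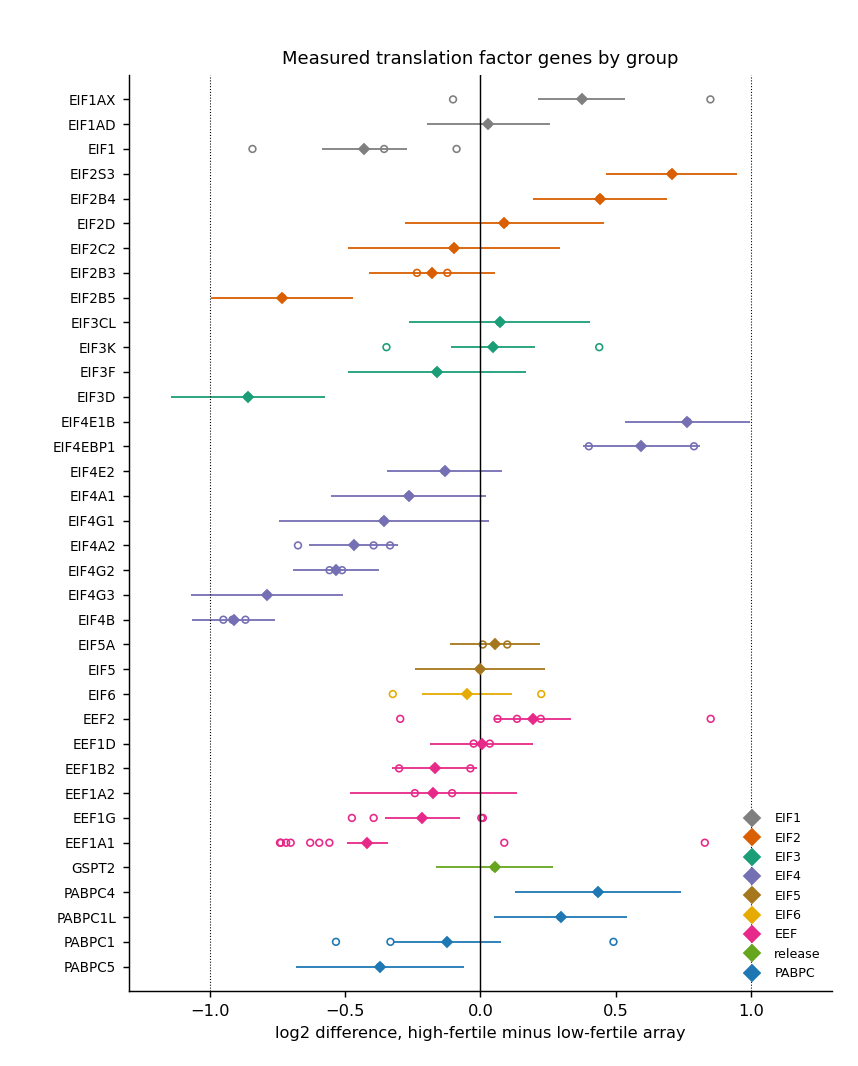
Diamonds give the log2 difference of each measured gene (horizontal axis, high-fertile minus low-fertile array), with bars for the scanner error, and open circles give the single probes of genes with several. Dotted lines mark a 2-fold difference, and the 3 EIF4B probes lie close together while those of EEF1A1 and EEF2 spread over more than 1 log2 unit.

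In the EEF group 2 of 6 measured genes were higher and 4 lower on the high-fertile array, with a median of -0.17 and a range of -0.42 to 0.19. EEF1A1 had 139 on the high-fertile array, against 185 on the low-fertile array, a difference of -0.42 with an SD of 0.53 between 9 probes. Its 7 probes at positions 262 to 1238 had scaled signals of 61.8 to 214 on the high-fertile array, against 95.6 to 315 on the low-fertile array, and averaged -0.67 (SD 0.07 between probes, -0.74 to -0.56). Not all of these are separate readings, since those at 638 and 660 overlap by 38 bases and those at 1213 and 1238 by 35, each with 2 mismatches. The next probe, at position 1588, had 462 on the high-fertile array, against 435 on the low-fertile array (0.09). The last, at position 2151, had 54.7 on the high-fertile array, against 30.8 on the low-fertile array (0.83), and the design places it on chromosome 18 while the others lie on chromosome 9. The EEF1A1 signal was thus lower on the high-fertile array by every probe in the first stretch and by neither probe beyond it. Without the chromosome 18 probe the gene stood at -0.57, and by its brightest probe alone at 0.09. Whether any probe also bound a copy of the gene elsewhere in the genome was not tested.

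EEF1A2, the form known from muscle and neurons, had 17.1 on the high-fertile array, against 19.3 on the low-fertile array (-0.17, scanner error 0.31). EEF1B2, EEF1D and EEF1G form the complex that recharges EEF1A with GTP. EEF1B2 had 82.1 on the high-fertile array, against 92.3 on the low-fertile array (-0.17, SD 0.19 between 2 probes). EEF1D had 61.6 on the high-fertile array, against 61.5 on the low-fertile array (0.0044, SD 0.04 between 2 probes). EEF1G had 48.5 on the high-fertile array, against 56.2 on the low-fertile array (-0.21), with an SD of 0.26 between 4 probes. The overlapping EEF1G pair printed above gave 0.0031 and -0.48 (36.8 on the high-fertile array, against 51.2 on the low-fertile array), although the probes share 43 bases. All of these subunits lay within 0.5 log2 units of 0.

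EEF2 moves the ribosome along the messenger. It had 44.8 on the high-fertile array, against 39.1 on the low-fertile array, a difference of 0.19 with an SD of 0.42 between 5 probes. Its brightest probe, at position 3103, had 190 on the high-fertile array, against 106 on the low-fertile array (0.85), and its probe at position 943 had 38.7 on the high-fertile array, against 47.5 on the low-fertile array (-0.30). The remaining EEF2 probes measured on both arrays lay between 0.06 and 0.22. Among them, the probe at position 3127 (0.13) shares 36 bases, with 0 mismatches, with the brightest probe. The design places it on chromosome X and the other EEF2 probes on chromosome 7. EEF2K, the kinase that inhibits EEF2, and EEF1E1 were well above background on neither array.

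**Figure D4:**
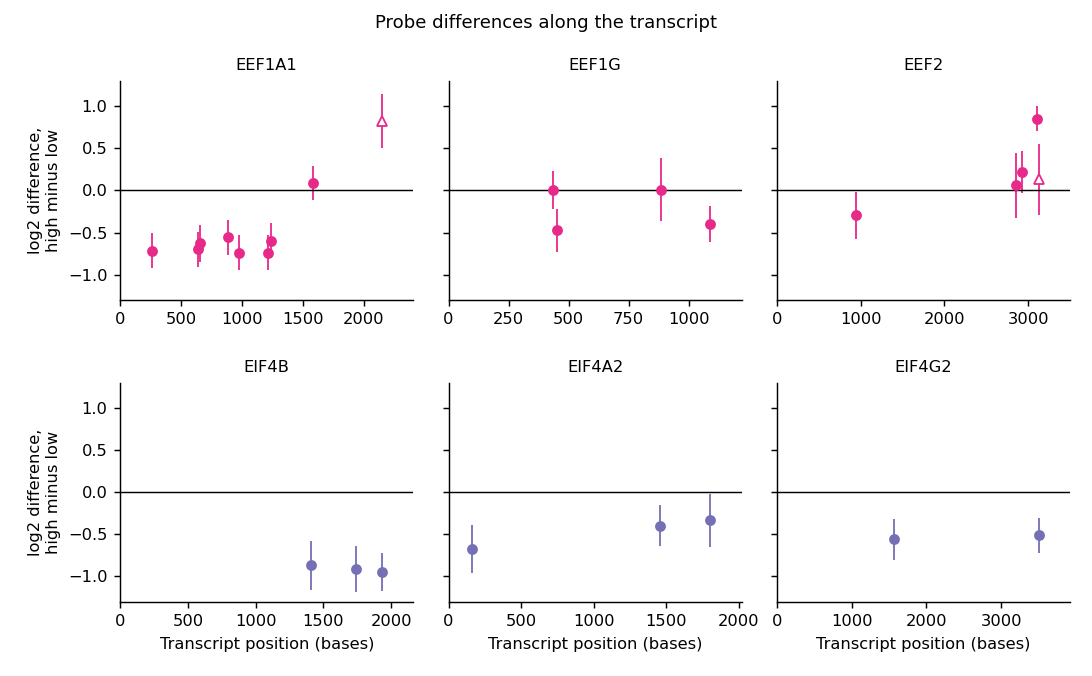
The log2 difference of each measured probe (vertical axis, high-fertile minus low-fertile array) is set against its position in the transcript in bases (horizontal axis) for 6 genes, with bars for the scanner error and open triangles for probes that the design places on another chromosome. The 7 EEF1A1 probes up to position 1238 lie between -0.74 and -0.56, and the 2 beyond it lie above 0.

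The EIF2 group split evenly, with 3 of 6 measured genes higher and 3 lower, a median of -0.0047 and a range of -0.73 to 0.71. EIF2S3, the subunit of EIF2 that binds GTP and the initiator tRNA, had 82.0 on the high-fertile array, against 50.3 on the low-fertile array, a difference of 0.71 from its single probe (scanner error 0.24). EIF2S1, the subunit whose phosphorylation slows initiation under stress, had 3.96 on the high-fertile array, where it was not well above background, against 37.9 on the low-fertile array. It was at least 2.49-fold lower on the high-fertile array by 1 probe with 2 spots, and its second probe, which overlaps the first by 24 bases with 1 mismatch, was well above background on neither array. These subunits of one complex thus differed in opposite directions, each on a single probe. The remaining subunit, EIF2S2, was well above background on neither array.

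The EIF2B genes encode the exchange factor that recharges EIF2 with GTP. EIF2B5, its catalytic subunit, had 32.5 on the high-fertile array, against 54.0 on the low-fertile array, a difference of -0.73 from its single probe (scanner error 0.26). EIF2B4 had 55.3 on the high-fertile array, against 40.7 on the low-fertile array. The difference was 0.44 from 1 measured probe of 3 (scanner error 0.25), and 0.04 without a filter on dim probes. EIF2B3 had 29.7 on the high-fertile array, against 33.6 on the low-fertile array (-0.18, SD 0.08 between 2 probes). EIF2B1 and EIF2B2 were well above background on neither array, and the measured subunits had no common direction.

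Of the kinases that phosphorylate EIF2S1, EIF2AK2, which responds to double-stranded RNA, had 6.76 on the high-fertile array, against 29.0 on the low-fertile array, at least 1.90-fold lower. This rested on 1 probe with 1 spot, and the other EIF2AK2 probe, with 2 spots, was well above background on neither array. EIF2AK1, which responds to haem shortage, was at least 1.16-fold lower on the high-fertile array. EIF2AK3 and EIF2AK4 were well above background on neither array. EIF2D, a factor that can deliver tRNA without GTP, stood at 0.09 from 1 probe (scanner error 0.37), and its other probe was on the high-fertile array only, at least 1.56-fold higher.

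The names EIF2C1 to EIF2C4 are older names of Argonaute genes, which bind small RNAs and are no subunits of EIF2. EIF2C4 had 12.2 on the high-fertile array, against 35.5 on the low-fertile array, at least 2.34-fold lower, and EIF2C2 stood at -0.10 (scanner error 0.39). EIF2C1 and EIF2C3 were well above background on neither array.

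In the EIF3 group 2 of 4 measured genes were higher and 2 lower, with a median of -0.06 and a range of -0.86 to 0.07. EIF3D, a subunit that can itself bind the cap, had 25.7 on the high-fertile array, against 46.7 on the low-fertile array, a difference of -0.86 from 1 of 3 probes (scanner error 0.28). That spot lay in a patch where 6 of its 8 neighbouring spots were also at least 2-fold lower, and without it EIF3D had no measured probe. EIF3K, a peripheral subunit, had 147 on the high-fertile array, against 142 on the low-fertile array (0.05), as the mean of 2 probes that overlap by 57 bases with 1 mismatch and gave 0.44 and -0.35. EIF3F had 24.1 on the high-fertile array, against 27.0 on the low-fertile array (-0.16, scanner error 0.33), and EIF3CL stood at 0.07 (scanner error 0.33). Apart from EIF3D, the measured EIF3 subunits lay within their probe spread or scanner error of 0.

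EIF3E was on the low-fertile array only by both of its probes, with a mean of 14.3 on the high-fertile array, against 38.3 on the low-fertile array. Its probes were at least 2.57-fold and at least 2.23-fold lower on the high-fertile array. On the high-fertile array only, EIF3G had 20.9, against 13.2 on the low-fertile array, at least 1.28-fold higher. EIF3M was at least 1.25-fold and EIF3I at least 1.20-fold higher on the high-fertile array, while EIF3A, the largest scaffold subunit, was too near background for a fold. EIF3B, EIF3H, EIF3J and EIF3L were well above background on neither array.

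Over all groups, 0 of the 4 genes on the high-fertile array alone reached a bound of 1.5-fold, where 20.4% of such genes in the whole table did. Of the 6 genes on the low-fertile array alone, 4 reached it (EIF2S1, EIF3E, EIF2C4 and EIF2AK2), where 44.0% of such genes in the whole table did, and the first 3 of these reached 2-fold.

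Among the other initiation factors, EIF1, which guards the choice of start codon, had 83.2 on the high-fertile array, against 112 on the low-fertile array, a difference of -0.43 with an SD of 0.38 between 3 probes. EIF1AX, its partner in scanning, had 107 on the high-fertile array, against 82.4 on the low-fertile array, a difference of 0.37 from probes at 0.85 and -0.10. EIF6, which keeps the large ribosomal subunit from joining early, stood at -0.05 from probes at 0.22 and -0.32. EIF5, which triggers GTP hydrolysis by EIF2, had 64.1 on the high-fertile array, against 64.2 on the low-fertile array. EIF5A, which helps the ribosome through difficult peptide bonds, had 64.4 on the high-fertile array, against 62.1 on the low-fertile array (0.05, SD 0.06 between 2 probes). EIF1AD stood at 0.03, and EIF1AY, EIF1B and EIF5A2 were well above background on neither array. For EIF1, EIF1AX and EIF6 the probe spread was larger than the difference or nearly as large, and EIF5, EIF5A and EIF1AD lay near 0.

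GSPT2, a GTPase that works with the release factor ETF1, had 117 on the high-fertile array, against 113 on the low-fertile array (0.05, scanner error 0.22), and ETF1 and GSPT1 were well above background on neither array. Of the poly(A)-binding proteins, 2 of 4 measured genes were higher and 2 lower, with a median of 0.09. PABPC4 had 39.8 on the high-fertile array, against 29.5 on the low-fertile array (0.43, scanner error 0.31). PABPC1, the main cytoplasmic form, had 24.8 on the high-fertile array, against 27.1 on the low-fertile array (-0.13), with an SD of 0.54 between probes at -0.33, -0.53 and 0.49. The design places the last of these on chromosome 5, the first on a sequence assigned to no chromosome, and gives no place for the other. Which placement is that of the gene itself was not tested. Without the chromosome 5 probe PABPC1 stood at -0.43. PABPC1L, a form known from oocytes, stood at 0.30 (scanner error 0.25) and PABPC5 at -0.37 (scanner error 0.31).

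Probes of the same gene disagreed in sign for some of the members. Of the 17 genes with several measured probes, 8 had probes of opposite sign: EEF1A1, EEF1D, EEF1G, EEF2, EIF1AX, EIF3K, EIF6 and PABPC1. The share of such genes in the whole table was not counted, so this is not shown to be particular to the members. The pooled SD between probes of a gene was 0.35 for members and 0.42 over 1774 genes of the whole table, and the SD between spots of one probe was 0.28 over 3038 probes. The 7 pairs of member probes that overlap and were measured on both arrays differed from each other by 0.07 to 0.79, with a median of 0.26. Since 19 of the 36 measured genes rested on 1 probe, a difference below these spreads is not distinguishable from disagreement between probes.

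The order of the group medians, from EIF4 (-0.36) through EEF (-0.17) and EIF3 (-0.06) to EIF2 (-0.0047), could not be tested with 1 array per group. Set against the median of all genes, the EIF4 median was below 0 under all 16 alternatives, between -0.47 with blocks of the array centred and -0.08 with normexp background correction. The EEF median was below 0 under 15 of 16, EIF3 under 12 of 16 and EIF2 under 11 of the 15 that left it a gene.

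**Figure D5:**
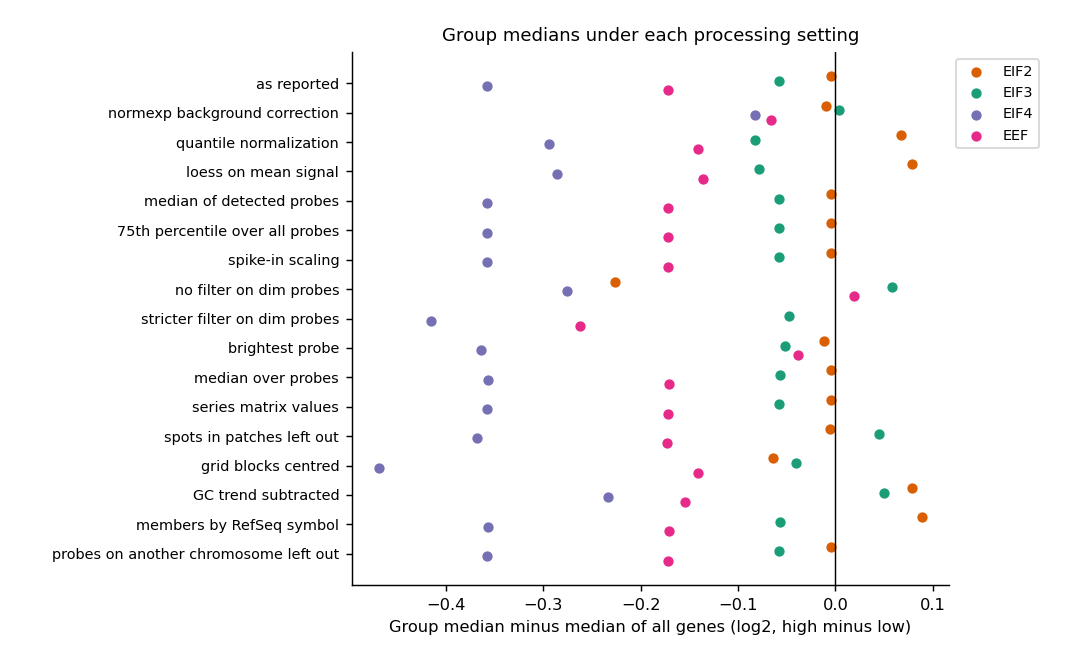
Points give the median difference of the EIF2, EIF3, EIF4 and EEF groups minus the median of all genes (horizontal axis, log2, high-fertile minus low-fertile array) under the reported processing and 16 alternatives, 1 per line. The EIF4 points all lie left of 0, between -0.47 and -0.08, and the EIF2 points lie on both sides. Alternatives that only shift an array by a constant repeat the reported points by construction, and leaving out probes placed on a different chromosome or sequence took out no EIF4 probe.

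Other genes of translation and its control showed no common direction. Of 38 on the array, 18 were measured, with 9 higher, 9 lower and a median of 0.03, and 1 was at least 2-fold apart. This was TPT1, a translationally controlled growth-related protein, with 39.1 on the high-fertile array, against 88.8 on the low-fertile array (-1.18, SD 0.40 between 3 probes). The next lowest was TSC1 (-0.57, SD 0.89 between 2 probes), a brake on the mTOR kinase, and the highest were PELO (0.93), which rescues stalled ribosomes, and RHEB (0.66), which activates mTOR. PELO and RHEB each rested on 1 measured probe of 2, and PELO had 19.7 on the low-fertile array, near that array's lowest signal well above background. MTOR and RPTOR were not measured. Of 10 mitochondrial translation factors 1 was measured, GFM2, at -0.41. Of the cytosolic ribosomal proteins, 51 of 76 measured genes (67.1%) were lower on the high-fertile array, beside the 49.98% of all genes, with a median of -0.15 and a range of -1.43 to 2.08. At least 2-fold higher were 2, RPS7 (2.08, from 1 measured probe of 2) and RPL18 (1.60, SD 1.18 between 2 probes). The 3 at least 2-fold lower were RPS4Y1 (-1.43), RPL37 (-1.09) and RPL26 (-1.01). Of all measured genes, 1.87% were higher and 2.44% lower by that fold.

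The labelled cell type was checked against marker genes. Of 16 sperm and spermatid markers 7 were measured, 3 higher and 4 lower with a median of -0.03, and with summed scaled signals of 421 (high-fertile array) and 417 (low-fertile array). They ranged from -1.10 for PRM1, a sperm protamine, to 1.22 for TNP2, a transition protein, while PRM2, AKAP4, SMCP, LDHC and others were well above background on neither array. TNP2 rested on 1 measured probe of 2, with 20.5 on the low-fertile array. Of 14 leukocyte markers 9 were measured, with sums of 5925 (high-fertile array) and 6451 (low-fertile array), a median of 0.05, and CD3E, CD8A and CSF1R on neither array. Most of both leukocyte sums came from CD3D and CD4, each by a single measured probe. CD3D had 3128 on the high-fertile array, against 3993 on the low-fertile array, from 1 of 3 probes. CD4 had 1087 on the high-fertile array, against 707 on the low-fertile array, from 1 of 5 probes. Of 12 epithelial and other somatic markers 7 were measured, with sums of 603 (high-fertile array) and 523 (low-fertile array), a median of 0.27, and CDH1 and EPCAM on neither array. Of the remaining lists, 4 of 7 testis somatic markers (median -0.06), 2 of 5 erythroid markers (0.10) and 0 of 5 epididymal and accessory gland markers were measured. None of the translation factors served as a marker of a cell type here, and the part of other cells in the values above was not tested.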

How the data were processed

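The deposited scanner tables hold linear spot intensities and, per the file headers, came from Agilent Feature Extraction 11.5.1.1 in 1 colour, with background subtracted and a spatial trend removed in the processed signal. The deposited series matrix holds log2 values, which equalled the log2 processed signals plus a constant of -5.12 (high-fertile) or -5.55 (low-fertile), within 0.01 for 98.6% of probes. Its columns had medians of -1.43 (high-fertile) and -1.37 (low-fertile), so no gene centring was applied, and its direction is that of expression.

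From the processed signals, control and outlier-flagged spots were left out, spots of a probe were averaged on the log2 scale, and each array's 75th percentile over probes well above background on both arrays (27.6% of probes) was subtracted (linear signal 149, high-fertile; 186, low-fertile). The number of arrays limits the precision. For a gene on one array only, the bright signal was divided by either the other array's lowest signal well above background or the dim probe's own, whichever was higher, and written as at least N-fold. Of the 189 member probes, 158 were matched by accession to RefSeq names of assembly ARS-UCD2.0, and 5 had a symbol there that differs from the array's.

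Members, gene lists and tests were chosen with earlier results of these data known. Named genes were those past 0.5 log2 units, the extremes of each group, bounds of at least 1.5-fold, genes with probes of opposite sign, and a fixed list of core factors; the remaining names complete the groups or were chosen after their values were seen. Alternatives used limma 3.58.1 in R 4.3.3 for normexp (offset 50) and Python 3.11.15 with pandas 2.3.3 and statsmodels 0.14.6 otherwise. The calculation was tested on simulated data.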

Additional observations from a re-analysis of the deposited data

How the results depend on the processing

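Set against the median of all genes under each setting, 17 of the 36 measured genes kept their sign under every alternative run, 11 of the 21 lower and 6 of the 15 higher (EEF2, EIF2B4, EIF2S3, EIF4E1B, EIF4EBP1 and PABPC4). Without that adjustment 14 kept it, 12 lower and 2 higher, a count that includes the common shift of spike-in scaling. With the adjustment, alternatives that only shift an array by a constant could not turn a sign. Spike-in scaling, which moved the median of all genes to -0.64, put 9 of the 36 members at least 2-fold apart, all lower, where 17.5% of all genes were at least 2-fold apart, and gave medians of -0.75 over all members, -0.64 for EIF2, -0.69 for EIF3, -0.99 for EIF4 and -0.81 for EEF, while EIF4EBP1 stood at -0.04. With no filter on dim probes 10 of the 71 genes were at least 2-fold apart (14.1%, 1 higher and 9 lower, where 8.08% of all gene names were) and the EIF2 median was -0.35. Normexp background correction gave an EIF4 median of -0.051. A threshold of 1.5-fold gave 7 genes in place of 0. Under the stricter filter, 0 genes were on one array only and no EIF2 gene was left, so it gave no EIF2 median. The causes of these moves were not tested, other than that the looser filter and threshold admit more genes by construction. The alternatives that left out probes placed on a different chromosome or sequence, and Argonaute genes from the EIF2 group, were chosen after seeing the data. No paired analysis was possible because each group had 1 array. Signals near background limit the EIF3 and EIF2 groups most, where 9 of 13 and 13 of 19 genes were not measured on both arrays.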
